A study of Mus musculus with 21 samples.

Results

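The data compared here are how the epidermis of tumour-bearing mice departs from that of tumour-free mice when the stimulatory G protein is lost, beside how it departs when Smoothened is activated directly. Polyadenylated RNA of mouse tail keratinocytes, the cells of the epidermis, was sequenced in bulk in 3 models of basal cell carcinoma (BCC). The comparison used 14 of the 21 libraries: every library of the models named SmoM2 and Gnas-eKO, with 3 libraries of no-tumour epidermis (Con) and 4 libraries of tumour-bearing epidermis (BCC) in each. SmoM2 cells were collected 29 days after induction and form batch A, and Gnas-eKO cells were collected 42 days after induction and form batch B, so model, batch and day cannot be told apart. The third model, PKI, collected at 57 days in batch C, served only for values set beside the others. In the names, SmoM2 stands for an activated form of Smoothened and Gnas-eKO for a knockout of Gnas. The labels do not say which alleles, promoters or Cre drivers the mice carried or what the Con mice carried. The quantity reported is the difference of BCC effects, which is the log2 ratio of BCC to Con in Gnas-eKO minus the same ratio in SmoM2. A value below 0 means a weaker rise or a stronger fall in Gnas-eKO. An additive offset between the batches cancels in it.

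In the Hedgehog pathway the receptor Ptch1 holds the membrane protein Smoothened inactive, and active Smoothened lets the Gli transcription factors switch on target genes such as Gli1, Ptch1 and Hhip. The alpha subunit encoded by Gnas stimulates adenylyl cyclases, which make cAMP, and cAMP activates protein kinase A, which marks Gli proteins for processing into repressors. Loss of Gnas and activation of Smoothened therefore enter the same pathway at different levels, and both are known to give rise to BCC-like growths in mouse skin.

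The 14 libraries held 18338771 to 22251107 counts, so that 3 counts corresponded to at most 0.172 counts per 1000000 counts (CPM). In the file headers the 4 SmoM2 BCC animals carry another name prefix than the SmoM2 Con animals, whose prefix is that of all 7 Gnas-eKO animals. The meaning of the prefix is not stated, so within SmoM2 the tumour and whatever the prefix marks cannot be told apart. Among the Gnas-eKO BCC libraries, replicate 2 had 9.70 CPM of Gli1 against 155 to 284 CPM in the other 3, and replicate 3 had 8.53% of its counts from mitochondrial genes against 1.98% to 3.48% in the other 13 libraries. By Xist level (over 10 CPM taken as female), libraries of both sexes were present in every group, with 2 females and 2 males in each BCC group, 1 female of 3 in SmoM2 Con and 2 females of 3 in Gnas-eKO Con.

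Of 17151 genes tested, 30 differed in their BCC effect between the models at an edgeR adjusted p under 0.05, which is 0.175% of the genes. The difference was above 0 in 13 of them (0.0758% of the genes tested) and below 0 in 17 (0.0991%). By unadjusted p under 0.05 the count was 1499 genes, or 8.74%, with 4.75% above 0 and 3.99% below 0. In the same fit 3367 genes (19.6%) were called in the SmoM2 BCC effect and 1866 (10.9%) in the Gnas-eKO BCC effect, and 1310 were called in both. Of these 1310 genes, 99.5% changed in the same direction and 6 changed in opposite directions. Without Gnas-eKO BCC replicate 2 the counts were 3782 in SmoM2 (22.1%) and 3590 in Gnas-eKO (21%), and of the 2135 genes called in both 26 changed in opposite directions. The number of called differences was 79 without Gnas-eKO BCC replicate 2. It was 14 without SmoM2 Con replicate 2, 15 without Gnas-eKO Con replicate 3, and 16 without either SmoM2 BCC replicate 2 or Gnas-eKO Con replicate 2. It was 17 without SmoM2 BCC replicate 1 and 19 without SmoM2 BCC replicate 3, SmoM2 BCC replicate 4 or Gnas-eKO Con replicate 1.

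Genes called in the SmoM2 effect had smaller median effects in Gnas-eKO. The 1914 genes that rose in SmoM2 (11.2% of those tested) had a median log2 effect of 1.23 there and 0.74 in Gnas-eKO, and the 1453 genes that fell (8.47%) had medians of −0.70 and −0.35. Of these 3367 genes, 85.4% had the smaller absolute effect in Gnas-eKO, although choosing genes by the SmoM2 effect favours larger values in SmoM2. Among the 1866 genes chosen by the Gnas-eKO effect, of which 1250 rose (7.29% of those tested) and 616 fell (3.59%), 55.3% had the smaller absolute effect in SmoM2. Per library, the slope of a BCC library's departure from its own Con mean on the SmoM2 effect over the 3367 genes was 0.934 to 1.02 in SmoM2, computed without that library. In Gnas-eKO the slopes were 0.729, 0.337, 0.599 and 0.799 for replicates 1 to 4. All 4 Gnas-eKO values lay below all 4 SmoM2 values, and replicate 2 was the lowest. The genes were still chosen with all 4 SmoM2 BCC libraries, which favours higher slopes in SmoM2. The order of the 2 models is therefore a description only.

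**Figure D1:**
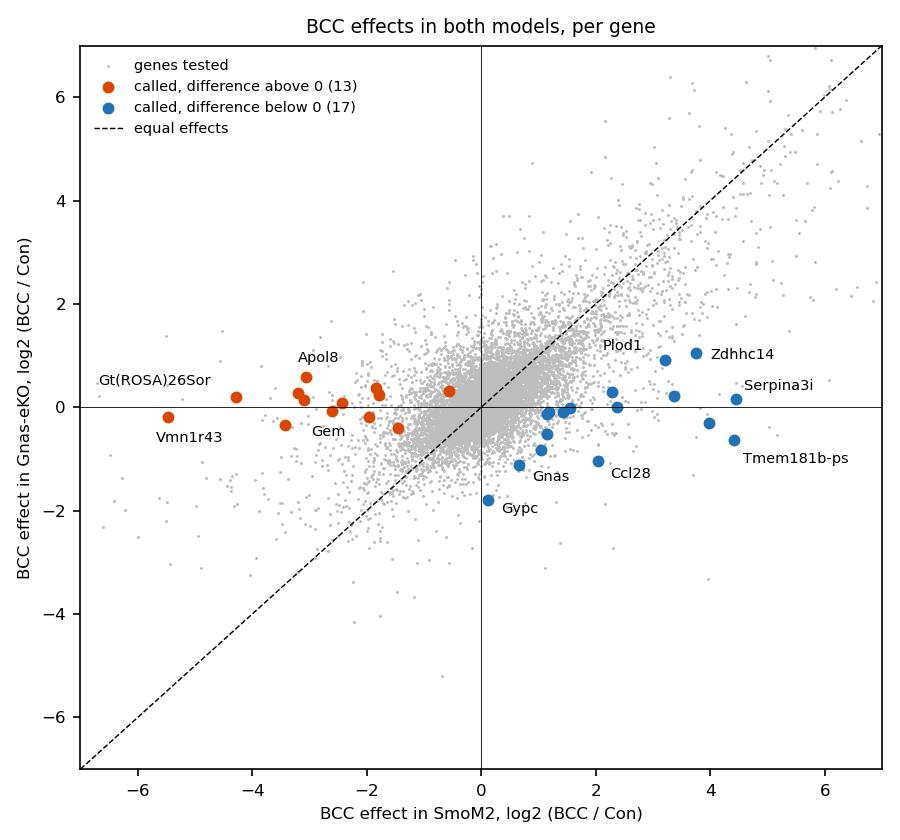
BCC effect in Gnas-eKO (vertical axis, log2) against the BCC effect in SmoM2 (horizontal axis, log2) for the genes tested (grey points), with the 13 called differences above 0 in orange, the 17 below 0 in blue and equal effects as a dashed line; 33 genes lie outside the axes, which end at 7. Most called genes lie near the horizontal line at 0, with a large SmoM2 effect and a small Gnas-eKO effect.

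The 30 called genes were mostly genes whose level set the SmoM2 BCC libraries apart from all others. In 28 of the 30, all 4 SmoM2 BCC libraries lay outside the range of the other 10 libraries, against 4.33% of all genes tested. In 3 of the 30 the 4 Gnas-eKO BCC libraries lay outside the range of the other 10, against 0.863% of all genes. The SmoM2 effect was called in 29 of the 30 (19.6% of all genes) and the Gnas-eKO effect in 3 (Gnas, Gypc and Gm9347; 10.9% of all genes). Without Gnas-eKO BCC replicate 2 the Gnas-eKO effect was called in 7 of the 30 (21% of all genes in that fit), with Ccl28, Zdhhc14, Tmem181a and Cacnb1 added. The absolute Gnas-eKO effect was under 1.5-fold in 22. These are descriptions, since the same libraries chose the genes. By annotation 21 of the 30 were protein-coding genes and 6 were pseudogenes. In 14 the call held in every fit that left out 1 library: Serpina3i, Gm7292, Dynlt1b, Gt(ROSA)26Sor, Serpina3h, Gem, Mcub, Rsph3b, Rpl34, Lynx1, Gm2654, Tagap, Tmem181b-ps and Gm8188. The other 16 lost it in some of these 14 fits: it held in 9 for Gnas, in 7 each for Ccl28 and Ampd3, in 6 for Vmn1r43, in 4 each for Gypc and Tdg, in 3 each for Zdhhc14, Pcdhgb7, Tmem181a, Eif3j1, Gm43844 and Plod1, in 2 each for Cacnb1 and Apol8, and in 1 each for Abhd1 and Gm9347.

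The targeted gene was itself among the 30. Gnas (GRCm38 chromosome 2, 174284320 to 174346744, plus strand) had 194, 194 and 181 CPM in SmoM2 Con and 293, 287, 313 and 311 CPM in SmoM2 BCC. It had 178, 175 and 172 CPM in Gnas-eKO Con and 117, 90.0, 51.6 and 66.1 CPM in Gnas-eKO BCC. The BCC libraries lay above Con in SmoM2 and below Con in Gnas-eKO, with no overlap in either model. The log2 effect was 0.67 in SmoM2 (SE 0.20, edgeR adjusted p 0.0279) and −1.11 in Gnas-eKO (SE 0.19, edgeR adjusted p 0.00316), a difference of −1.78 (SE 0.28, edgeR adjusted p 0.0170). The difference lost its call in 5 of the 14 fits that left out 1 library, each time a Con library. Which exons were deleted is not given, reads of the remaining exons and of cells that kept the gene still count, and fewer cells of a type cannot be told apart from less RNA per cell in these bulk libraries. Gnas overlaps Gm20721, and how reads of their shared bases were counted is not known.

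Gypc, Gm9347, Ccl28 and Cacnb1 also differed, with effects of opposite sign or a change in Gnas-eKO. Gypc encodes glycophorin C, a membrane protein best known from red blood cells (chromosome 18, 32528322 to 32560034). It had 20.3, 23.6 and 22.7 CPM in Gnas-eKO Con against 3.33, 7.76, 7.17 and 7.21 CPM in Gnas-eKO BCC. In SmoM2 it had 11.2, 14.4 and 8.82 CPM in Con and 11.0, 12.6, 13.3 and 13.0 CPM in BCC, and these groups overlapped. It is the 1 gene of the 30 whose SmoM2 effect was not called: its effect was −1.80 in Gnas-eKO (SE 0.24, edgeR adjusted p 0.000591) and 0.12 in SmoM2 (SE 0.24, edgeR adjusted p 0.778). The difference was −1.93 (SE 0.34, edgeR adjusted p 0.0437), and the 3 Gnas-eKO Con libraries stood above the 3 SmoM2 Con libraries. In PKI the gene rose by 5.79 on the log2 scale, from at most 0.405 CPM in Con to 10.9 to 15.4 CPM in BCC (edgeR adjusted p 0.000101).

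Ccl28, a chemokine made by epithelial cells (chromosome 13, 119623819 to 119654359), had 2.04, 1.73 and 0.974 CPM in SmoM2 Con and 8.12, 7.54, 6.92 and 3.41 CPM in SmoM2 BCC. It had 3.30, 2.25 and 3.84 CPM in Gnas-eKO Con and 1.83, 1.89, 1.02 and 1.31 CPM in Gnas-eKO BCC. BCC lay above Con in SmoM2 and below Con in Gnas-eKO without overlap, although the Gnas-eKO effect of −1.05 did not pass by itself (SE 0.34, edgeR adjusted p 0.0656). It passed without Gnas-eKO BCC replicate 2 (−1.16, edgeR adjusted p 0.0415). The difference was −3.08 (SE 0.49, edgeR adjusted p 0.0226). In PKI Ccl28 fell by 1.82 on the log2 scale (edgeR adjusted p 0.00809).

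Cacnb1, a beta subunit of voltage-gated calcium channels (chromosome 11, 98001508 to 98023034), had 13.8, 14.7 and 15.7 CPM in SmoM2 Con and 9.94, 10.1, 10.0 and 9.72 CPM in SmoM2 BCC. In Gnas-eKO it had 12.7, 11.8 and 11.2 CPM in Con and 14.0, 13.4, 15.9 and 15.6 CPM in BCC. The groups separated downward in SmoM2 and upward in Gnas-eKO, with a difference of 0.88 (SE 0.16, edgeR adjusted p 0.0442). The Gnas-eKO effect of 0.31 did not pass by itself (95% interval 0.07 to 0.55, edgeR adjusted p 0.0899), but passed without Gnas-eKO BCC replicate 2 (0.35, edgeR adjusted p 0.0479). Con was lower in Gnas-eKO than in SmoM2. Gm9347, a processed pseudogene, had effects of 1.05 in SmoM2 (edgeR adjusted p 0.00814) and −0.82 in Gnas-eKO (edgeR adjusted p 0.0444). Its difference of −1.87 (SE 0.34, edgeR adjusted p 0.0484) was the weakest of the 30 by p.

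Among genes high in SmoM2 BCC alone, the protease inhibitor genes of the Serpina3 cluster led. Serpina3i (chromosome 12, 104263122 to 104269372) had 95.2, 107, 85.7 and 85.8 CPM in SmoM2 BCC. The other 10 libraries held 3.29 to 6.69 CPM, with 4.64, 3.72, 6.69 and 4.19 CPM in Gnas-eKO BCC. Its effects were 4.45 in SmoM2 and 0.17 in Gnas-eKO, a difference of −4.28 (SE 0.32, edgeR adjusted p 3.55e-05), the smallest p of all genes tested. The neighbouring pseudogene Serpina3h had 220 to 266 CPM in SmoM2 BCC and 31.2 to 53.4 CPM in the other 10 libraries, a difference of −2.37 (SE 0.25, edgeR adjusted p 0.000508). Reads of these near-identical copies may have been divided between them. Summed over 13 members of the family, the level was 459 ± 131 CPM in SmoM2 Con (SD, n = 3), 1029 ± 227 in SmoM2 BCC (SD, n = 4), 553 ± 57.1 in Gnas-eKO Con (SD, n = 3) and 670 ± 251 in Gnas-eKO BCC (SD, n = 4). The summed difference of −0.89 (95% interval −1.73 to −0.05) was not called (edgeR adjusted p 0.532). Serpina3b held the largest part of the Con sums and had mean levels of 291 CPM in Con and 234 in BCC of SmoM2 and of 356 and 419 CPM in Gnas-eKO. Serpina3j had mean levels of 84.5 and 383 CPM in SmoM2 and of 119 and 123 CPM in Gnas-eKO.

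Plod1, a lysyl hydroxylase of collagen (chromosome 4, 147909753 to 147936767), had 59.7, 101, 75.6 and 85.5 CPM in SmoM2 BCC and 7.09 to 10.1 CPM in SmoM2 Con. In Gnas-eKO BCC it had 13.4, 25.1, 10.4 and 23.9 CPM against 7.83, 9.17 and 11.9 CPM in Con, and these groups overlapped. The effects were 3.20 and 0.91 and their difference −2.29 (SE 0.41, edgeR adjusted p 0.0468). Lynx1, a membrane-anchored modulator of nicotinic acetylcholine receptors, had 34.3 to 38.3 CPM in SmoM2 BCC and 10.8 to 16.5 CPM in the other 10 libraries, a difference of −1.57 (SE 0.20, edgeR adjusted p 0.00373). Ampd3, an AMP deaminase, had 163, 163, 125 and 155 CPM in SmoM2 BCC and 54.4 to 81.1 CPM in the others, a difference of −1.26 (SE 0.21, edgeR adjusted p 0.0276). The noncoding RNA gene Gm7292 had 37.6 to 46.1 CPM in SmoM2 BCC and 1.13 to 3.35 CPM in the others, a difference of −4.29 (SE 0.38, edgeR adjusted p 0.000179). Pcdhgb7, a gamma protocadherin whose exons overlap those of the other genes of its cluster, had effects of 1.14 and −0.52 and a difference of −1.66 (SE 0.29, edgeR adjusted p 0.0442). Tdg, a DNA glycosylase that removes thymine and oxidised cytosines (chromosome 10, 82629828 to 82650799), had 59.3, 89.8, 113 and 71.5 CPM in SmoM2 BCC and 26.2 to 36.2 CPM in the others. Its difference was −1.53 (SE 0.27, edgeR adjusted p 0.0437), but summed over 3 genes of the Tdg family it was −0.43 (95% interval −0.88 to 0.02, edgeR adjusted p 0.602).

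Promoters of the called genes were searched on both strands for the letters TGGGTGGTC (Gli), TGACGTCA (cAMP response element) and GGAATG (TEAD), in windows of 300 bases around each RefSeq start in GRCm38.p6. The promoter table held 15 of the 30 genes, with 23 windows. No window held the Gli letters, which 0.253% of all 32851 windows hold, 1 held the cAMP response element letters (1.79% of all) and 2 held the TEAD letters (14.7% of all). A match is a description of the letters only. The 3 matches are shown with 30 bases on either side because they are all the matches found, 1 of the cAMP response element letters (Tdg) and 2 of the TEAD letters (Serpina3i and Tagap), with the matched letters in capitals, all on the plus strand, at chr10:82629673-82629740, chr12:104262954-104263019 and chr17:7925823-7925888.
Tdg: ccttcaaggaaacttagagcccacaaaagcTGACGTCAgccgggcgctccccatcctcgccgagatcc
Serpina3i: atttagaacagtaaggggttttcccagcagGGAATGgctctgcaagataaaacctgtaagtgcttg
Tagap: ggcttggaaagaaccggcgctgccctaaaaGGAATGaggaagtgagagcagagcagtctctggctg

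Among genes low in SmoM2 BCC alone was the noncoding transcript of the Rosa26 locus, the site into which many mouse transgenes, the common SmoM2 allele among them, are placed. The labels do not say where the SmoM2 allele of these mice lies. Gt(ROSA)26Sor (chromosome 6, 113067428 to 113077333, minus strand) had 16.2, 16.7 and 14.3 CPM in SmoM2 Con and 1.28, 0.681, 0.654 and 0.560 CPM in SmoM2 BCC. It had 15.4, 13.6 and 16.2 CPM in Gnas-eKO Con and 12.0, 13.9, 28.8 and 14.7 CPM in Gnas-eKO BCC, which overlapped. The effects were −4.29 and 0.21 and their difference 4.50 (SE 0.43, edgeR adjusted p 0.000207). The gene overlaps Thumpd3.

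Gem and Mcub, both regulators of calcium entry, were low in the same libraries. Gem, a small GTP-binding protein that inhibits voltage-gated calcium channels (chromosome 4, 11704457 to 11714752), had 4.70, 5.50, 3.88 and 3.56 CPM in SmoM2 BCC and 21.4 to 38.2 CPM in the other 10 libraries. Its effects were −2.60 and −0.08 and their difference 2.53 (SE 0.27, edgeR adjusted p 0.000697). Mcub, an inhibitory subunit of the mitochondrial calcium uniporter (chromosome 3, 129914960 to 129970206), had 0.319, 0.389, 0.561 and 0.611 CPM in SmoM2 BCC and 3.13 to 5.92 CPM in the others, a difference of 3.09 (SE 0.34, edgeR adjusted p 0.000786). Rpl34, a protein of the large ribosomal subunit on the same chromosome (130726831 to 130730398), had 10.6 to 15.6 CPM in SmoM2 BCC and 98.0 to 286 CPM in the others. Its difference of 3.48 (SE 0.43, edgeR adjusted p 0.00342) was 0.44 (95% interval −0.41 to 1.28, edgeR adjusted p 0.787) when 3 genes of the Rpl34 family were summed. Eif3j1, a subunit of a translation initiation factor, had 8.08 to 11.4 CPM in SmoM2 BCC and 14.9 to 34.4 CPM in the others, a difference of 2.02 (SE 0.36, edgeR adjusted p 0.0442), which was 0.13 (95% interval −0.11 to 0.38) when summed with its copy Eif3j2.

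The remaining genes low in SmoM2 BCC had few counts or few known functions. Gm2654 and Gm8188, both processed pseudogenes, had differences of 2.52 (SE 0.34, edgeR adjusted p 0.00505) and 1.76 (SE 0.25, edgeR adjusted p 0.00669). Abhd1 and Gm43844 had differences of 2.22 and 3.24 (edgeR adjusted p 0.0468 and 0.0468). Apol8 had 0, 0.0973, 0.0935 and 0.153 CPM in SmoM2 BCC, at about the level of 3 counts or less, against 0.692 to 0.811 CPM in SmoM2 Con. In Gnas-eKO it had 0.562 to 0.864 CPM in Con and 0.937 to 1.29 CPM in BCC, so the groups separated downward in SmoM2 and upward in Gnas-eKO, where the effect was not called (0.59, edgeR adjusted p 0.397). Its fitted difference of 3.65 (edgeR adjusted p 0.0470) depends on the prior count. Vmn1r43, a vomeronasal receptor gene, was at 0 CPM in 3 SmoM2 BCC libraries and at 0.0467 CPM in the other, all under the level of 3 counts, and at 0.515 to 1.35 CPM in the other 10 libraries. Its fitted difference of 5.28 (SE 0.87, edgeR adjusted p 0.0276) likewise depends on the prior count.

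**Figure D2:**
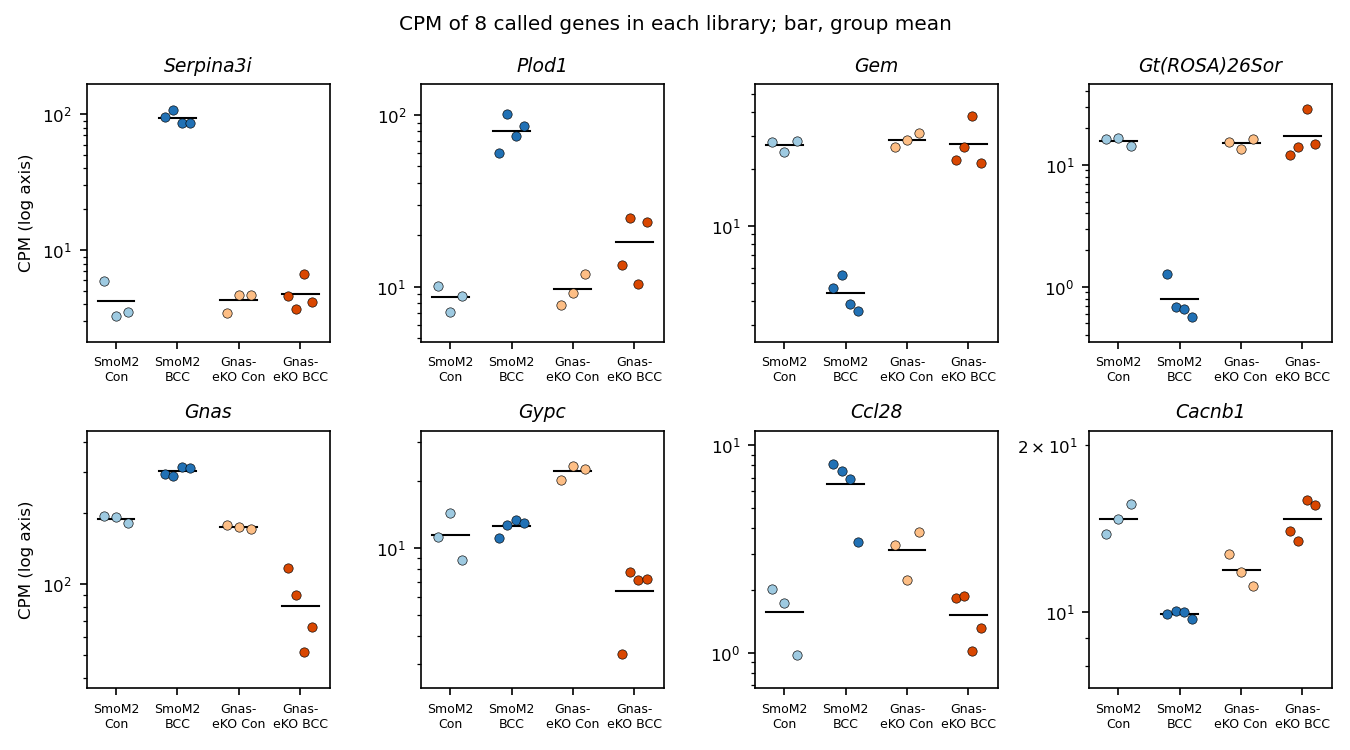
CPM on a log axis in each of the 14 libraries for 8 called genes, 1 point per library and a bar at each group mean. Serpina3i, Plod1, Gem and Gt(ROSA)26Sor show SmoM2 BCC apart from the other 10 libraries, while Gnas and Ccl28 rise in SmoM2 BCC and lie below Con in Gnas-eKO BCC, Gypc is lower in Gnas-eKO BCC, and Cacnb1 separates in opposite directions.

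Several called genes were neighbours on chromosome 17. Of the 30, 6 (Zdhhc14, Tmem181a, Dynlt1b, Tmem181b-ps, Rsph3b and Tagap) lay between 5492557 and 7934897, a stretch of 2442341 bases with 28 genes tested, so that 21.4% of its genes were called against 0.175% overall. The SmoM2 effect was called in 12 of the 28 (42.9%, against 19.6% of all genes) and the Gnas-eKO effect in 1 (3.57%, against 10.9%). Without Gnas-eKO BCC replicate 2 they were called in 13 (46.4%, against 22.1%) and in 5 (17.9%, against 21%). The stretch was bounded by called genes after their values were seen, so these shares are descriptions.

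Zdhhc14, a palmitoyltransferase (5492557 to 5753811), had 10.7, 10.4, 8.32 and 8.90 CPM in SmoM2 BCC, 1.12 to 2.11 CPM in Gnas-eKO BCC replicates 1, 3 and 4, 0.970 CPM in replicate 2, and 0.346 to 0.974 CPM in the 6 Con libraries. Its effects were 3.75 (edgeR adjusted p 1.21e-05) and 1.05 (edgeR adjusted p 0.0621, or 0.0272 without replicate 2), a difference of −2.70 (SE 0.47, edgeR adjusted p 0.0442). Tagap, a GTPase-activating protein known from activated T cells (7926000 to 7934897), had 15.7, 13.0, 18.8 and 16.1 CPM in SmoM2 BCC and 2.85 to 4.73 CPM in the other 10 libraries, a difference of −1.98 (SE 0.27, edgeR adjusted p 0.00505). The summed level of 12 leukocyte markers was 122 to 139 CPM in Con and 332 to 539 CPM in BCC of SmoM2, and 157 to 169 CPM in Con and 179 to 1047 CPM in BCC of Gnas-eKO, with Mcpt4 at 0 in all 4 SmoM2 BCC libraries. Of the 11 tested, none rose in either model and 1 fell in each (8.47% of all genes in SmoM2, 3.59% in Gnas-eKO). Without Gnas-eKO BCC replicate 2, 1 rose in SmoM2 (12.6%) and 3 in Gnas-eKO (12%), and 1 fell in each (9.52% and 8.96%). The part of these markers in the Tagap result was not tested. Tagap overlaps E430024P14Rik.

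The other 4 called genes of the stretch have near-identical neighbours, and some moved in opposite directions. Dynlt1b, a dynein light chain, had 19.6, 15.6, 19.0 and 18.5 CPM in SmoM2 BCC and 1.53 to 2.54 CPM in the other 10 libraries, a difference of −3.16 (SE 0.30, edgeR adjusted p 0.000207). Tmem181b-ps, a pseudogene, had 11.4 to 12.6 CPM against 0.153 to 1.28 CPM, a difference of −5.06 (SE 0.70, edgeR adjusted p 0.00562). Its coding relative Tmem181a fell instead, with 21.7, 17.0, 19.6 and 23.7 CPM in SmoM2 BCC against 36.1 to 60.8 CPM, a difference of 1.06 (SE 0.19, edgeR adjusted p 0.0442). Rsph3b, a radial spoke protein of motile cilia, had 37.6 to 46.8 CPM in SmoM2 BCC against 17.3 to 23.4 CPM, a difference of −1.28 (SE 0.16, edgeR adjusted p 0.00263). With copies summed, the difference was −1.15 for the Dynlt1 family (95% interval −1.77 to −0.53, edgeR adjusted p 0.197), 0.33 for Tmem181 (−0.03 to 0.70, edgeR adjusted p 0.615) and −0.99 for Rsph3 (−1.33 to −0.66, edgeR adjusted p 0.0256). Of the 7 families summed, which held 9 of the 30 called genes, Rsph3 alone stayed called.

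**Figure D3:**
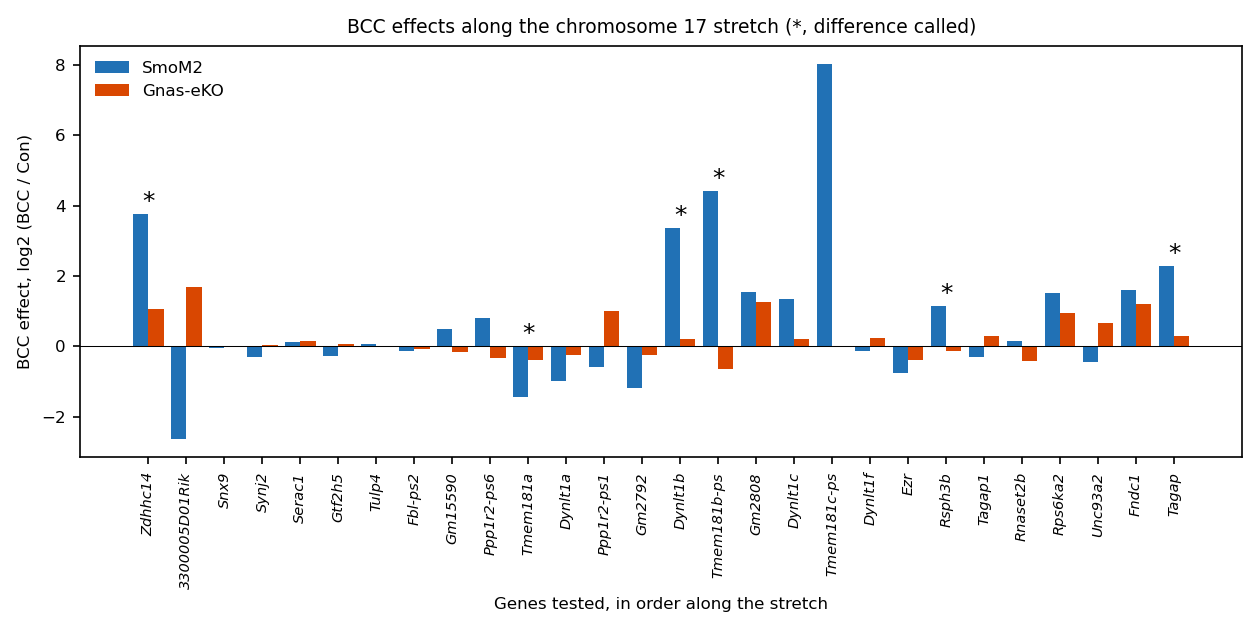
BCC effects (log2) in SmoM2 (blue bars) and Gnas-eKO (orange bars) for the 28 genes tested in the chromosome 17 stretch, in their order along it, with an asterisk over the 6 called differences. At the 6 called genes SmoM2 bars of both signs stand beside smaller Gnas-eKO bars; the tallest bar, Tmem181c-ps, was not called.

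The third model gave values for the same genes. Of the 30, 29 were tested in PKI, and 12 were called in its BCC effect, against 34.5% of all genes tested there. In 15 of the 30 the 3 PKI Con libraries lay beyond the 6 Con libraries of the other models, on the side to which SmoM2 BCC had moved, against 6.29% of all genes and 9.44% of the genes called in the SmoM2 effect. Gem had 1.47, 3.73 and 2.29 CPM in PKI Con and 1.97 to 2.19 CPM in PKI BCC, so its PKI level lay below all Con libraries of the other models. Lynx1 had 31.9 to 34.0 CPM in PKI Con, near the level of SmoM2 BCC. Tmem181b-ps had 5.41 to 6.80 CPM and Dynlt1b had 4.05 to 5.72 CPM in PKI Con, between the SmoM2 Con and BCC levels. Serpina3i ranged from 5.25 to 41.4 CPM within PKI Con. The animal names of the PKI libraries carry a prefix of their own, and its part in these levels was not tested.

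No Hedgehog gene was called in the difference. Of 8 target genes tested, 6 rose in SmoM2 (11.2% of all genes) and 5 in Gnas-eKO (7.29%), with median effects of 4.16 and 2.76, and a median difference of −0.30 (0.02 over all genes). The difference was below 0 in all 8, and the count was 6 of 8 without Gnas-eKO BCC replicate 2, with a median of −0.13. Gli1 had 6.99, 5.07 and 16.6 CPM in SmoM2 Con, 296, 293, 254 and 273 CPM in SmoM2 BCC, 5.54, 4.78 and 9.98 CPM in Gnas-eKO Con, and 239, 9.70, 284 and 155 CPM in Gnas-eKO BCC. In Gnas-eKO BCC replicate 2 it lay within the range of Con, and in the other 3 it lay far above. The difference was −0.21 with a 95% interval of −2.62 to 2.20, which spans large differences in either direction. Ptch1 had 808 to 1070 CPM in SmoM2 BCC and 946, 272, 318 and 833 CPM in Gnas-eKO BCC, against 30.1 to 42.9 CPM in the 6 Con libraries, a difference of −0.55 (95% interval −1.66 to 0.55). Hhip, a decoy that binds Hedgehog ligands, differed by −2.40 (−5.41 to 0.61). Ccnd2, a D-type cyclin, was the target with an unadjusted p under 0.05 (difference −0.56, p 0.0399 by edgeR, edgeR adjusted p 0.527), at 318 to 367 CPM in SmoM2 BCC and at 277, 270, 145 and 256 CPM in Gnas-eKO BCC.

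Receptor and transducer genes of the pathway were not called in the difference either. Smo had 315, 305, 285 and 299 CPM in SmoM2 BCC and 221, 175, 151 and 235 CPM in Gnas-eKO BCC, against 94.1 to 113 CPM in the 6 Con libraries. These BCC groups did not overlap, and the difference of −0.70 (95% interval −1.09 to −0.30) had an edgeR adjusted p of 0.215. Gas1, a co-receptor, had 716 to 809 CPM in SmoM2 BCC and 486, 511, 390 and 597 CPM in Gnas-eKO BCC, a difference of −0.75 (−1.14 to −0.36, edgeR adjusted p 0.162). Gli2, the main activator of the targets, had 198, 211, 174 and 186 CPM in SmoM2 BCC and 119, 90.6, 84.2 and 142 CPM in Gnas-eKO BCC, against 15.0 to 21.4 CPM in Con. Its difference was −0.93 (−1.43 to −0.43, edgeR adjusted p 0.180). Gli3, which acts mainly as a repressor, differed by −0.47 (edgeR adjusted p 0.396) and Spop, an adaptor for Gli degradation, by 0.29 (edgeR adjusted p 0.507). By unadjusted p under 0.05 these were 2 of 9 ligand and receptor genes and 3 of 14 transducers, against 8.74% of all genes.

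**Figure D4:**
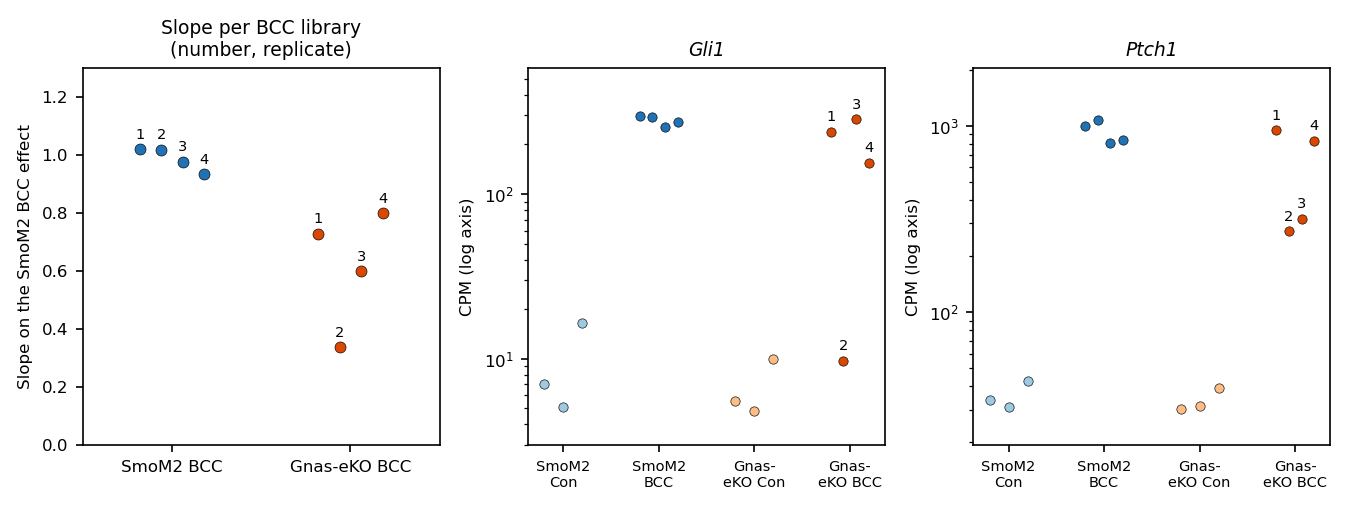
Left, the slope of each BCC library on the SmoM2 BCC effect over 3367 genes, with replicate numbers; middle and right, CPM of Gli1 and Ptch1 on log axes in each library, with replicate numbers over Gnas-eKO BCC. Gnas-eKO BCC replicate 2 has the lowest slope, 0.337, and a Gli1 level within the range of the Con libraries.

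In the pathway from Gs to cAMP and protein kinase A, Gnas was the called gene. Of 13 G alpha genes tested, Gnal, the alpha subunit of olfactory neurons that also stimulates adenylyl cyclases, had 1.42, 0.90 and 1.23 CPM in Gnas-eKO Con and 3.28, 1.62, 3.72 and 2.24 CPM in Gnas-eKO BCC, without overlap. Its effects were 1.19 in Gnas-eKO (edgeR adjusted p 0.0291) and 0.04 in SmoM2, but their difference of 1.15 was not called (95% interval 0.21 to 2.08, edgeR adjusted p 0.435). Gnao1, an inhibitory alpha subunit, rose in both models, with effects of 3.33 in SmoM2 (edgeR adjusted p 0.000132) and 1.89 in Gnas-eKO (0.00834) and a difference of −1.44 (0.431). Among 16 adenylyl cyclases and phosphodiesterases, Pde3a, a cAMP-degrading enzyme, had 0.0498 to 0.202 CPM in Gnas-eKO Con and 2.06, 0.590, 1.08 and 1.36 CPM in Gnas-eKO BCC, while SmoM2 held 0.135 to 0.464 CPM throughout. Its difference was 2.97 (95% interval 1.23 to 4.71, edgeR adjusted p 0.231). The Gnas-eKO Con levels were at about the level of 3 counts or less, so this fitted value depends on the prior count.

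No subunit of protein kinase A was called in the difference with all 14 libraries. Prkar2b, a regulatory subunit, had 24.3, 15.3 and 18.8 CPM in SmoM2 Con and 36.8, 39.3, 33.8 and 37.0 CPM in SmoM2 BCC, and 24.1, 25.4 and 28.4 CPM in Gnas-eKO Con against 23.5, 23.4, 11.8 and 14.7 CPM in Gnas-eKO BCC. The groups separated upward in SmoM2 and downward in Gnas-eKO. The difference was −1.41 (95% interval −2.06 to −0.76, edgeR adjusted p 0.102), and it was called without Gnas-eKO BCC replicate 2 (−1.56, edgeR adjusted p 0.0390). Prkar1b, another regulatory subunit, differed by −1.42 (edgeR adjusted p 0.402), with rises in both models. Of 9 kinase A subunits and inhibitors the difference was above 0 in 2, with a median of −0.26. Of 15 genes known as targets of cAMP and CREB, Fos had a difference of 1.44 (edgeR adjusted p 0.257), Per1 of −0.96 (edgeR adjusted p 0.256) and Sik1 of −0.80 (edgeR adjusted p 0.464), and the median over the 15 was −0.44, or −0.21 over the 14 tested without Gnas-eKO BCC replicate 2. The 3 genes did not share a direction, and none was called.

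Genes of terminal epidermal differentiation make the cornified layer and its barrier. Of 22 genes tested, 13 fell in SmoM2 (8.47% of all genes) and 3 in Gnas-eKO (3.59%), and none rose in either. Without Gnas-eKO BCC replicate 2, 14 fell in SmoM2 (9.52% of all genes in that fit), and in Gnas-eKO 6 fell (8.96%) and 1 rose (12%). With all libraries the median effect was −1.10 in SmoM2 and 0.05 in Gnas-eKO, and the median difference was 1.07, against 0.02 over all genes. It was above 0 in 19 of the 22, with an unadjusted p under 0.05 in 12, all above 0 (4.75% of all genes), and none was called after adjustment. Without that replicate the median difference was 1.04 and the number at that p was again 12. The Con groups differed too: in 20 of the 22 the SmoM2 Con mean exceeded the Gnas-eKO Con mean, and in 19 the Gnas-eKO BCC mean exceeded the SmoM2 BCC mean. Since model and batch coincide, these level differences were not tested.

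Flg2, a filaggrin-like protein of the cornified layer, had the smallest p of the list. It had 15.0, 48.0 and 44.1 CPM in SmoM2 Con and 3.15, 3.45, 10.6 and 8.50 CPM in SmoM2 BCC. In Gnas-eKO it had 14.6, 6.80 and 15.9 CPM in Con and 29.4, 16.8, 31.5 and 19.8 CPM in BCC. BCC lay below Con in SmoM2 and above Con in Gnas-eKO without overlap, and the difference was 3.44 (95% interval 1.93 to 4.96, edgeR adjusted p 0.0932). Klk5, a kallikrein protease of desquamation, had 40.4, 31.8, 71.9 and 75.2 CPM in SmoM2 BCC against 105, 182 and 151 CPM in Con, and 123, 95.4, 109 and 105 CPM in Gnas-eKO BCC against 95.4, 88.9 and 128 CPM in Con. Its difference was 1.47 (0.63 to 2.30, edgeR adjusted p 0.219). The inhibitor of these proteases, Spink5, differed by 1.19 (edgeR adjusted p 0.287), and Klk7 by 1.22 (edgeR adjusted p 0.405). Among cornified envelope proteins and the enzyme that cross-links them, differences were 1.44 for Ivl, 1.86 for Lor, 2.17 for Flg and 0.96 for Tgm1 (edgeR adjusted p 0.336 to 0.509). Krtdap, Sbsn, Cdsn and Krt77 completed the 12, with differences from 0.66 to 1.23. The early differentiation keratin Krt10 fell in both models: its effects were −0.82 in SmoM2 (edgeR adjusted p 0.0240) and −0.81 in Gnas-eKO (0.0414), and their difference was 0.02 (95% interval −0.70 to 0.73).

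**Figure D5:**
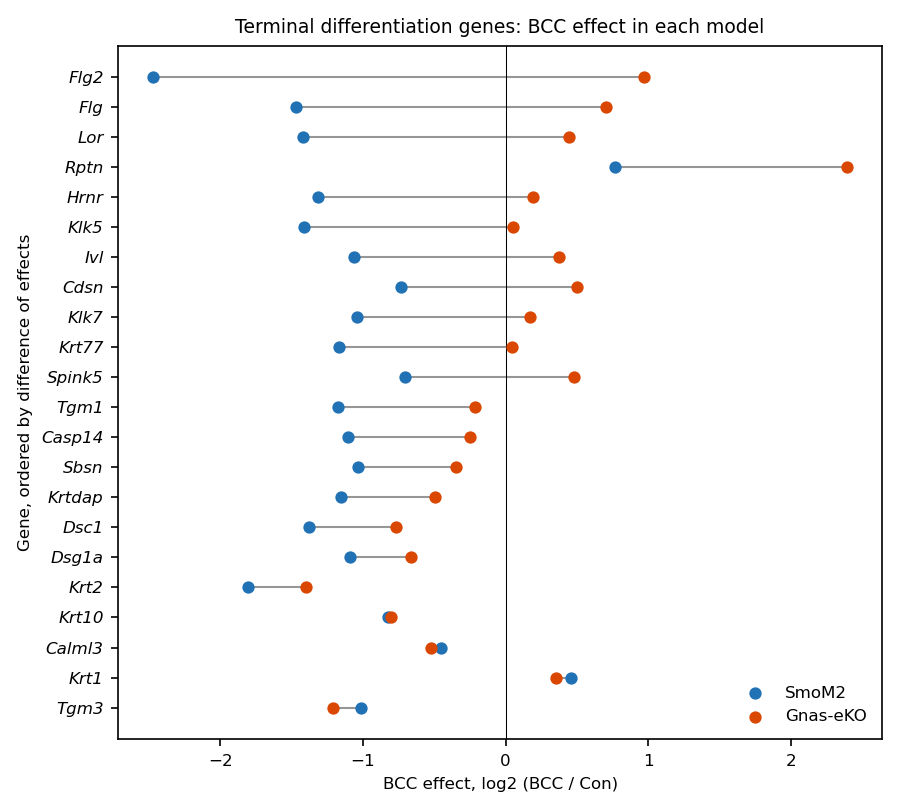
BCC effects (log2) of the 22 terminal differentiation genes in SmoM2 (blue) and Gnas-eKO (orange), joined by a line per gene and ordered by the difference. In 19 genes the Gnas-eKO point lies to the right of the SmoM2 point, and no single difference was called.

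The other lists held no called difference with all 14 libraries. Basal epidermis genes had a median difference of −0.12 over 12 genes (−0.32 without Gnas-eKO BCC replicate 2, where 5 of them fell in Gnas-eKO, against 8.96% of all genes, compared with 2 and 3.59% in all libraries), with Krt15, a keratin of follicle stem cells and basal cells, above 0 (0.53, edgeR adjusted p 0.407) and Trp63, the transcription factor p63 of stratified epithelia, below 0 (−0.56, edgeR adjusted p 0.282). Trp63 had 924 to 1190 CPM in SmoM2 BCC and 631 to 827 CPM in Gnas-eKO BCC, against 715 to 781 CPM in Con. Of hair follicle bud genes, 12 of 17 rose in SmoM2 (11.2% of all genes) and 10 in Gnas-eKO (7.29%), 2 fell in SmoM2 (8.47%) and none in Gnas-eKO (3.59%), none had opposite signs, and the median difference was −0.03, which turned to 0.13 without that replicate. In that fit 12 rose and 2 fell in each model (12.6% and 9.52% of all genes in SmoM2, 12% and 8.96% in Gnas-eKO). Lgr6, a stem cell receptor of the upper follicle, had a difference of 0.80 (edgeR adjusted p 0.481). Proliferation genes had a median of −0.30 over 20 genes, with 3 above 0, and the replication helicase genes Mcm6 (−0.78, edgeR adjusted p 0.299) and Mcm3 (−0.48, edgeR adjusted p 0.450) and the mitotic regulator Foxm1 (−0.55, edgeR adjusted p 0.553) at an unadjusted p under 0.05; without that replicate 6 genes were at that p, all below 0 (6.18% of all genes in that fit, compared with 3.99% in all libraries). Wound keratinocyte genes had a median of 0.76 with 12 of 13 above 0 and none at that p. Without that replicate their median was 1.06, 1 was at that p, and 4 of 13 rose in SmoM2 (12.6% of all genes in that fit) and 10 in Gnas-eKO (12%), compared with 1 and 2 of 13 in all libraries (11.2% and 7.29% of all genes). YAP target genes had a median of −0.09 over 21 genes. Of these, 5 rose and 4 fell in SmoM2 (11.2% and 8.47% of all genes), and 4 rose and 2 fell in Gnas-eKO (7.29% and 3.59%). Without that replicate the median was −0.23 over 20 genes. In that fit 7 rose and 5 fell in SmoM2 (12.6% and 9.52%), and 4 rose and 7 fell in Gnas-eKO (12% and 8.96%). There, 4 differences were below 0 at an unadjusted p under 0.05 (6.18%), and Nt5e was called above 0. With all libraries 1 was above 0 and 1 below 0 at that p, with Nt5e, a nucleotidase that makes adenosine, at 0.81 (edgeR adjusted p 0.326) and Tgfb2 at −0.95 (edgeR adjusted p 0.228). Wnt genes (median −0.05) and interferon-stimulated genes (median 0.21) had no member at an unadjusted p under 0.05 with all libraries. Without that replicate the medians were 0.0062 and 0.34, and 1 interferon-stimulated gene was at that p. Inner root sheath and hair shaft keratins had a median of 0.53, which was −0.02 without Gnas-eKO BCC replicate 2.

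Markers of some other cell types that tail skin can hold differed in level between Con and BCC libraries. The summed level of 7 fibroblast markers was 16.4 to 39.8 CPM in the 6 Con libraries, 389 to 524 CPM in SmoM2 BCC and 94.0 to 579 CPM in Gnas-eKO BCC. Of the 7, 3 rose in SmoM2 (11.2% of all genes) and 5 in Gnas-eKO (7.29%). Without Gnas-eKO BCC replicate 2, 3 rose in SmoM2 (12.6%) and 6 in Gnas-eKO (12%). Col1a1 and Col3a1, collagens of dermal fibroblasts, had differences of 2.62 (edgeR adjusted p 0.352) and 2.67 (edgeR adjusted p 0.460). Col1a1 stood at 1.17 to 3.69 CPM in SmoM2 BCC and at 29.4, 2.59, 12.2 and 12.3 CPM in Gnas-eKO BCC, against 1.20 to 2.08 CPM in the 6 Con libraries. Col3a1 was at most 4.30 CPM in SmoM2 BCC, so other members held most of the fibroblast sum there. Sums of 6 melanocyte markers lay between 123 and 219 CPM in all 4 groups. The difference of effects was above 0 in all 6 (median 0.54), with 2 at an unadjusted p under 0.05 (4.75% of all genes above 0) and none called, and Mitf, a melanocyte transcription factor, rose in Gnas-eKO (0.68, edgeR adjusted p 0.0368). Sums of 3 Schwann cell markers lay between 4.23 and 8.08 CPM, and of 4 sebaceous gland markers between 1930 and 4114 CPM. Endothelial, muscle, Merkel cell and adipocyte sums were at most 11.0 CPM in these groups. The keratinocyte markers summed to 47394 CPM or more in Con and to 31733 to 46771 CPM in SmoM2 BCC and 23015 to 42604 CPM in Gnas-eKO BCC. The part of these levels in the differences was not tested.

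Leaving out Gnas-eKO BCC replicate 2 left 79 called differences among 17096 genes (0.462%), 36 above 0 and 43 below 0. They included all 30 and 49 others. The fitted differences of these 49 had the same sign in the fit of all 14 libraries, and 42 had an unadjusted p under 0.05 there. Since the 2 fits share all other libraries, this likeness is largely built in. In 40 of the 49 the Gnas-eKO effect was called (21% of all genes in that fit), in 36 the SmoM2 effect (22.1%), and in 15 both were called with opposite signs. Among these 15 was Slc45a4, a solute carrier, with effects of −0.65 in SmoM2 and 1.12 in Gnas-eKO and a difference of 1.77 (SE 0.20, edgeR adjusted p 0.00107). The others of this kind included Zfp36, which destabilises cytokine messages (difference 1.38, edgeR adjusted p 0.0390), Il18, a cytokine of keratinocytes (3.35, edgeR adjusted p 0.0409), and the noncoding RNA Malat1 (1.44, edgeR adjusted p 0.0211). Egln1, an oxygen-sensing hydroxylase, and Slc2a12, a glucose transporter, had differences of −1.04 and −1.20 (edgeR adjusted p 0.0158 and 0.0117). Genes called in the Gnas-eKO effect and not in the SmoM2 effect included the AP-1 gene Jun (Gnas-eKO effect 1.65, difference 2.07, edgeR adjusted p 0.0395) and the estrogen receptor gene Esr1 (−1.76 and −1.82, edgeR adjusted p 0.0395). Enpp1 and Nt5e, enzymes that turn extracellular nucleotides into adenosine in sequence, rose in both models and more in Gnas-eKO, by 0.62 and 2.48 for Enpp1 and by 0.42 and 1.39 for Nt5e (differences 1.86 and 0.97, edgeR adjusted p 0.00668 and 0.0211). Mme, a membrane peptidase, rose by 1.56 and 3.90, a difference of 2.34 (edgeR adjusted p 0.0259). These genes were chosen from that fit after their values were seen.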

How the data were processed

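Polyadenylated RNA was measured in 21 libraries, of which the 14 of batches A and B entered the comparison. The authors deposited estimated counts per gene without normalization; 32.4% of the values are not whole, and they were rounded here. The submitters' processing notes name bcl2fastq 2.20, cutadapt 1.18, STAR 2.7.0f, Partek and build mm10, without their roles. The preparation was stranded per the labels' protocols, and whether counting used strand is not given in the sources used here, so overlapping genes are uncertain. A second, normalized table was not used here. Gene positions come from GENCODE M21 (GRCm38).

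Counts were tested with edgeR 4.0.16 in R 4.3.3: filterByExpr by group, TMM scaling, a robust quasi-likelihood fit with 1 mean per group over 14 libraries, and Benjamini-Hochberg adjustment over all 17151 genes, with genes called at an adjusted p under 0.05. PKI was fitted on its own 7 libraries (16397 genes). CPM given per library for a gene in the 14 libraries use TMM-scaled totals of those 14. PKI values, Xist levels, marker sums, means of family members and the level of 3 counts use TMM-scaled totals of all 21 libraries. PKI values are therefore set beside CPM of a slightly different scaling. Intervals are 95% intervals of the fitted log2 value. No libraries of a group matched within sampling noise (the lowest chi-square over its degrees of freedom was 8.33). The labels do not say that replicates are separate animals, though headers carry animal names, so p-values measure the spread between these libraries. On simulated counts (16853 genes), the fit of the difference recovered 37 of 100 genes with a log2 difference of 1 and 85 of 100 with one of 2, with 9 false calls in all. The changed genes were drawn from those above a minimum mean level. All groups otherwise shared the same mean, and no outlying library was simulated. These rates therefore need not hold for genes with few counts or for groups with such a library. Floors of 3 counts cover counting error only.

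Named were Smo, Gnas, Gli1, Gli2, Ptch1 and Hhip, up to 30 called genes, list members with an unadjusted p under 0.05 (or the 2 most abundant), and the 5 largest rises and falls in SmoM2; some genes that the rule names are not reported here. The comparison, its lists and the naming rule were chosen with earlier results of these data known. Alternatives were DESeq2 1.42.0, its size factors, limma 3.58.1 voom with quality weights, other filters, no robust estimation, a joint fit of 21 libraries, a sex term, a replicate block and each library left out. Summing near-identical copies and describing the chromosome 17 stretch were added after seeing the data.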

Additional observations from a re-analysis of the deposited data

Results flagged for a closer look

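The difference of BCC effects itself passed its test in 30 genes. Its log2 value was below 0 in Tmem181b-ps (−5.06), Gm7292 (−4.29), Serpina3i (−4.28), Dynlt1b (−3.16), Ccl28 (−3.08), Zdhhc14 (−2.70), Serpina3h (−2.37), Plod1 (−2.29), Tagap (−1.98), Gypc (−1.93), Gm9347 (−1.87), Gnas (−1.78), Pcdhgb7 (−1.66), Lynx1 (−1.57), Tdg (−1.53), Rsph3b (−1.28) and Ampd3 (−1.26). It was above 0 in Vmn1r43 (5.28), Gt(ROSA)26Sor (4.50), Apol8 (3.65), Rpl34 (3.48), Gm43844 (3.24), Mcub (3.09), Gem (2.53), Gm2654 (2.52), Abhd1 (2.22), Eif3j1 (2.02), Gm8188 (1.76), Tmem181a (1.06) and Cacnb1 (0.88).

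A library lay far from the other 3 of its group in 21 of the 200 groups of 4 looked at, where chance gives about 1 in 20 for independent groups. These groups are genes in the same few libraries, so the count cannot be set against that rate. In Gnas-eKO BCC replicate 2 the hair shaft keratins Krt84 and Krt36 reached 13246 and 8485 CPM, against at most 331 and 336 CPM in the other 3. Mettl7a2 (45.2 CPM), 1110025L11Rik (7.44 CPM), Krtap6-5 (7.06 CPM), Gm10228 (6.58 CPM) and Gm10229 (3.83 CPM) stood above the others there, and Krt6a (717 CPM), Gnao1 (2.10 CPM) and Tmem181b-ps (0.162 CPM) below. In replicate 3 Rpl34 (286 CPM) and Gt(ROSA)26Sor (28.8 CPM) stood above and Ccnd2 (145 CPM) and Foxm1 (25.4 CPM) below. Replicate 1 was low in Ampd3 (56.7 CPM) and Gypc (3.33 CPM), and replicate 4 in Eif3j1 (14.9 CPM).

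In SmoM2 BCC, replicate 1 was high in Gt(ROSA)26Sor (1.28 CPM), replicate 2 in Trp63 (1190 CPM), and replicate 3 in Col3a1 (4.30 CPM) and Vmn1r43 (0.0467 CPM, which is 1 count).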

How the results depend on the processing

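Against 30 called differences (13 above 0, 17 below 0), DESeq2's Wald test called 178 (88 and 90), limma voom with quality weights 105 (52 and 53) and the joint fit of 21 libraries 66 (30 and 36). Summing copies, an alternative added after seeing the data, gave 13 (6 and 7), of which 12 are shared with the 30; it removes genes with small p by construction. Size factors, both filters, no robust estimation and the sex term gave 24 to 31. Leaving out 1 library gave 14 to 79 in all, 6 to 36 above 0 and 8 to 43 below 0. The count in the SmoM2 effect (3367) was 5486 with voom and 2154 to 4662 with 1 library left out, and in the Gnas-eKO effect (1866) 3765 and 683 to 3590. Of the 30, 12 were called in PKI, and 8 to 12 with a PKI library left out.

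With the replicate block the counts were 21 (9 and 12) for the difference, 2169 for SmoM2 and 494 for Gnas-eKO, and 13 of the 30 kept the call. Same-numbered BCC and Con libraries did not deviate together (correlations −0.080, −0.110 and −0.114 in SmoM2, 0.031, 0.156 and 0.093 in Gnas-eKO), so the numbers were not taken to pair animals.

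Of the 30, 7 were called in every fit that kept gene copies apart, and none changed sign in these fits. With copies summed, Serpina3i and Dynlt1b of the 7 lost the call, and Tmem181b-ps (−5.06) became part of a family difference of 0.33. Uncalled values that did are, under voom, Dkk3 (0.0208 from −0.05), Krt84 (−2.93 from 0.70), Krt36 (−2.56 from 0.53) and S100a8 (−0.93 from 0.07). With the block, Krt84 was −2.88, Krt36 −2.47 and S100a8 −1.19, and with the sex term Krt6a was −0.14 (from 0.15) and S100a8 −1.53. With 1 library left out, Gli1 ranged from −0.86 to 0.18, Dkk3 from −0.27 to 0.12, Lgr5 from −0.36 to 0.15, Krt84 from −3.63 to 1.11 and Krt36 from −3.18 to 0.95. Krt6a ranged from −0.0423 to 0.49, S100a8 from −1.38 to 0.78, Cd74 from −0.0202 to 0.75, Pecam1 from −0.43 to 0.14 and Scd1 from −0.40 to 0.0739. Dscaml1 ranged from −0.995 to 0.14 and Gm5084 from −1.40 to 0.0103. The cause was not tested.

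Limits: 3 and 4 libraries a group, model confounded with batch and day, SmoM2 tumour confounded with the animals' name prefix, and copies of near-identical genes whose reads cannot be assigned here.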
